A study of Mus musculus with 147 samples.

Results

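Secreted hormones and growth factors are made as longer precursors that are cut on the way out of the cell. Proprotein convertases such as furin cut the chain after pairs of basic residues, carboxypeptidases such as carboxypeptidase E then trim those residues from the new end, and peptidylglycine alpha-amidating monooxygenase (*Pam*) turns a terminal glycine into an amide. Renin itself leaves the juxtaglomerular cell of the kidney both as prorenin and, after its prosegment is removed in storage granules, as active renin. The genes described here are 9 of the 35438 in the count tables, picked by symbol: the convertases *Furin*, *Pcsk5*, *Pcsk6* and *Pcsk7*, the convertase chaperone *Scg5*, the carboxypeptidases *Cpe*, *Cpd* and *Cpm*, and *Pam*. All 9 had counts in both genotypes. Measured values played no part in the symbol rule, but the list was drawn up with earlier results of these cells known, and *Cpe* and *Pam* stand on the authors' own list of genes that differed between these cells, so their direction is not independent evidence.

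The cells were single YFP-positive cells sorted from the kidney cortex of adult mice of both sexes, strain C57BL/6 by the labels. WT renin cells (51 cells, pooled from 4 mice in 1 Fluidigm C1 capture) had the genotype Ren1c+/+ Ren1c-YFP, and Renin-null cells (96 cells, from 12 mice in 4 captures) had Ren1c-/- Ren1c-YFP. The YFP came from a Ren1c-YFP transgene present in both genotypes, so the sort took cells by the activity of its 5′ Ren1c sequence. Knockout mice had also been given subcutaneous saline as newborns, over 5 days. Renin-null cells form libraries YFP1 and YFP2 of 48 wells each, and all 48 index pairs of YFP1 recur in YFP2.

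Each genotype is a single pool here, because the labels tie no well to a mouse or a capture. No test between genotypes was therefore run, every value below is a description, and the genotypes differ in capture and library too, which cannot be told apart from genotype. YFP1 and YFP2 are compared with the same WT wells. Counts per well had a median of 1525972 in WT (26401 to 17124854) and 4107950.5 in Renin-null wells (3628 to 14505243), and the median share of mitochondrial counts was 60.4% in WT and 12.4% in Renin-null wells. A filter of 100000 counts, 1000 genes and at most 25% mitochondrial counts kept 15 WT and 57 Renin-null wells. There were 4 pairs of Renin-null wells with nearly the same profile (Pearson's r of 0.974 to 0.987, the next pair at 0.896), 3 of them across the libraries, and counting each pair as 1 left 92 Renin-null wells. Summed markers of tubule, podocyte, endothelium or macrophage passed 2000 counts per 1000000 counts (CPM, in capitals to set it apart from the gene *Cpm*) in 14 Renin-null wells and in 0 WT wells. Wells are named below by library and sample number, such as WT_8.

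The labelled genotypes matched the targeted gene. *Ren1* was at 96023 CPM in WT and present in 51 of 51 wells, from 563 to 313965 with a median of 21402. Renin-null wells held 54 *Ren1* counts in all, 0.135 CPM, spread over 16 of 96 wells. That 16.7% of wells (exact Clopper-Pearson interval 9.8 to 25.6) is the share of wells with a count for a gene these cells should lack. *Akr1b7*, a marker of renin cells, was at 4528 CPM in the WT sum against 2011 in the Renin-null sum, while the median per well was 254 in WT and 376 in Renin-null wells (63.4 in YFP1 and 527 in YFP2). Smooth muscle markers summed to 10625 and 11717 CPM and pericyte markers to 12125 and 14531, with *Acta2* or *Tagln* and *Rgs5* as the most abundant genes. Markers of other cell types were low in both pools but higher in the Renin-null one: proximal tubule markers summed to 29.4 CPM in WT against 329 (led by *Slc34a1* and *Miox*), loop and distal tubule to 0.515 against 109.4 (*Calb1* and *Slc12a1*), and collecting duct to 10.6 against 45.7 (*Hsd11b2* and *Aqp2*). Endothelial markers summed to 32.3 against 226 CPM (*Emcn* in both, with *Cdh5*, *Egfl7* and *Plvap* at 0 in WT) and macrophage markers to 1.48 against 10.5 (*Ptprc* and *Cd74*, with *C1qb* at 0 in both).

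*Cpe* and *Pam* were present in most Renin-null wells and at least 2-fold higher there in every setting tried, *Cpd* was at least 2-fold lower in every setting, and the convertases other than *Furin* had counts in a minority of wells in both genotypes. Levels of different genes were compared per length, as counts per kilobase of transcript scaled to 1000000 over all genes, and on that scale *Cpe* led in both genotypes, at 201 in WT against 860 in Renin-null wells. The order after it was *Cpm* (69.3), *Cpd* (37.6), *Pam* (27.6), *Pcsk7* (16.5) and *Furin* (7.11) in WT, and *Pam* (130), *Cpm* (45.4), *Furin* (12.0) and *Cpd* (4.76) in Renin-null cells. *Cpe* made up 55.9% of the summed per-length level of the 9 genes in WT and 81.1% in Renin-null cells, and *Pam* 7.65% and 12.3%. Below *Furin* in WT and below *Cpd* in Renin-null cells the remaining members stayed at 3.07 or less on that scale, and their order rests on 1 or a few wells each. The places of *Cpd* and *Pcsk7* in the WT order also rest on single wells, which held 75.8% and 95.6% of their WT counts. Single wells likewise held 61.6% of the WT counts of *Furin* and 55.4% of those of *Pam*.

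**Figure D1:**
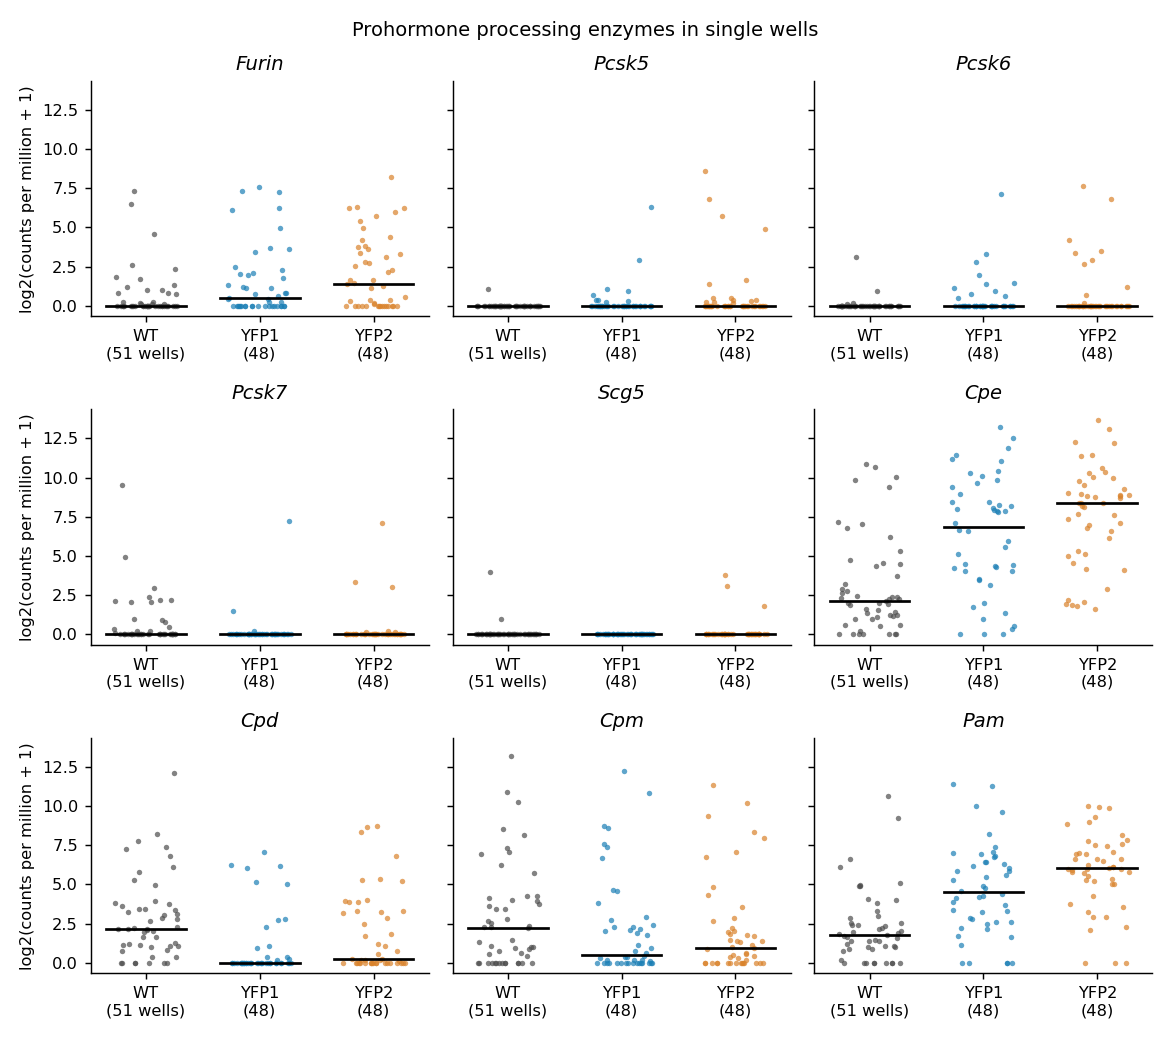
Level of each gene in every well as log2(CPM + 1), for the 51 WT, 48 YFP1 and 48 YFP2 wells; each point is a well and the black line is the median. The medians of *Cpe* and *Pam* lie above those of WT in both Renin-null libraries, while the medians of *Pcsk5*, *Pcsk6*, *Pcsk7* and *Scg5* are at 0 in all 3 sets.

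Read as ratios of summed CPM, Renin-null over WT, 4 of the 9 members were at least 2-fold higher (*Cpe*, *Pam*, *Pcsk5* and *Pcsk6*), 2 were at least 2-fold lower (*Cpd* and *Pcsk7*) and 3 lay between. Among all 18720 genes with a ratio, 52.4% were 2-fold higher and 18.5% 2-fold lower, so in the sums the members as a group stood near the background. With the mean of log2 values, 3 members were higher and 1 lower, against 9.03% and 1.90% of all genes and 21.9% and 3.92% of those of at least 10 CPM. The median log2 ratio was 0.55 over the members and 1.17 over all genes with a ratio. The members' median was the higher one with the mean of log2 values (0.45 against 0.13), with thinned cells (1.73 against 1.36) and without the highest well (2.18 against 1.84). Over genes of at least 10 CPM the median in these settings was 0.45, 1.43 and 1.54, so the first equalled that of the members. Among the 7554 genes of at least 10 CPM on average over the genotypes, 43.9% were higher and 20.8% lower, with a median of 0.66. Of the 6 members that passed that filter, *Cpe* and *Pam* were higher and *Cpd* and *Pcsk7* lower; a gene high in only 1 genotype can pass it through that genotype. Those 4 and 2 members were also called in YFP1 and in YFP2 each (*Scg5* in YFP1 in addition), where the background was 33.3% higher and 15.8% lower in the sum and both libraries. With TMM factors, which rescale each genotype, every ratio fell by 0.70 and the split of the members became 4 higher and 4 lower, against 43.1% and 27.2% of all genes (33.3% and 31.4% of the expressed ones).

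The counts of most members sat in very few wells, and the calls depend on them to different degrees. In WT, the highest 5 wells held 90.9% to 100% of the counts of every member, and in Renin-null cells 48.5% (*Cpe*) to 100% (*Scg5*). Without the highest well of each genotype for each gene, 6 members were at least 2-fold higher and 1 was lower, against 62.7% and 11.1% of 16553 genes. *Pcsk7* then lost its call and turned from a log2 ratio of -3.19 to 0.16, and *Scg5* went from -0.93 to 4.14. *Cpe*, *Pam* and *Cpd* kept theirs.

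**Figure D2:**
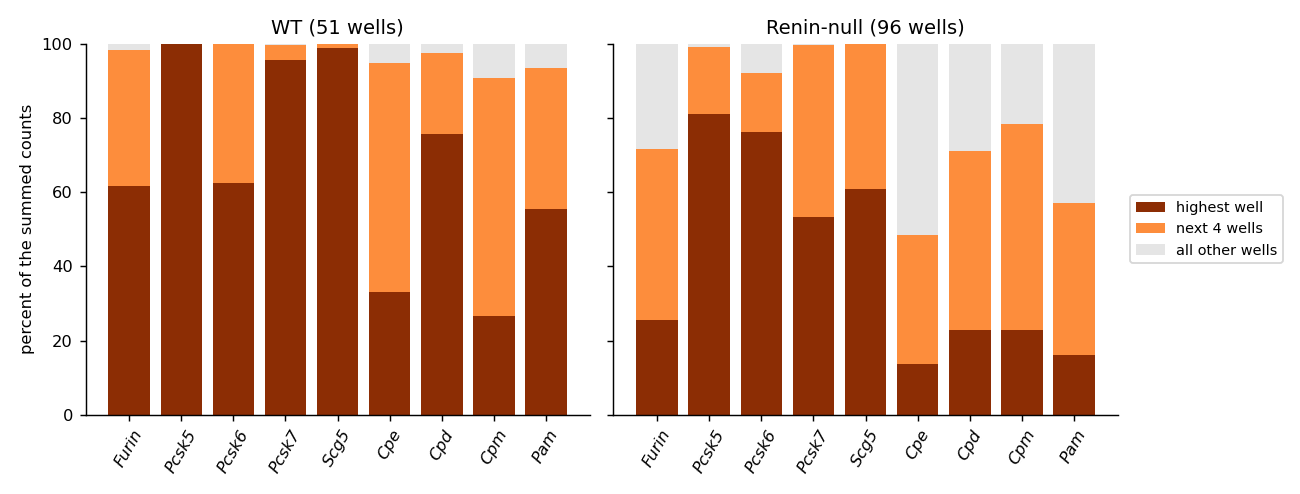
Percent of each gene's summed counts held by its highest well, the next 4 wells and all other wells, in WT (51 wells) and Renin-null cells (96 wells). A single WT well holds 95.6% of *Pcsk7* and 75.8% of *Cpd*, and a single Renin-null well holds 81.2% of *Pcsk5* and 76.4% of *Pcsk6*, while *Cpe* in Renin-null cells is the most evenly spread.

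Among the convertases, *Furin*, which works in the trans-Golgi network and at the cell surface and cuts many growth factors and receptors (chr7:80388585-80405436 on GRCm38, as for all positions here), was the most widely present. It had a count in 20 of 51 WT wells (39.2%, interval 25.8 to 53.9) and in 61 of 96 Renin-null wells (63.5%, 53.1 to 73.1). After each well was thinned to 62000 counts, it was seen in 4 of 49 WT wells and 19 of 83 Renin-null wells. WT wells ran from 0 through a median of 0 to 159 CPM, YFP1 wells from 0 through 0.398 to 187, and YFP2 wells from 0 through 1.67 to 302. The ranges of the 3 sets overlapped. Summed, *Furin* was at 14.7 CPM in WT (exact Poisson interval 14.2 to 15.2) against 21.5 in Renin-null wells (21.1 to 22.0), a log2 ratio of 0.55 (exact conditional interval 0.49 to 0.61). These intervals cover counting error only, and amplified copies, which carry no molecular identifiers, make them too narrow. The ratio was 0.59 in YFP1 and 0.52 in YFP2. Of 13 other settings tried, 5 put it past 2-fold higher, from 1.13 (mean of log2 values) to 1.63 (thinned cells), and with TMM factors it turned to -0.15. Well YFP2_134, the highest for *Furin* with 25.5% of its Renin-null counts, also held 8892 CPM of endothelial markers; without the 14 wells rich in other cell types the ratio was 0.10. In WT, well WT_5 held 61.6% of the counts, and without the highest well of each genotype the ratio was 1.45.

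*Pcsk5* (chr19:17432319-17837632) and *Pcsk6* (chr7:65861734-66050386) encode convertases that act largely on the cell surface and in the matrix, on precursors of the TGF-beta family among others. *Pcsk5* had 14 counts in WT, all in 1 well, and 4895 in Renin-null cells, in 23 of 96 wells. Its summed level was 0.0707 CPM in WT against 12.3 in Renin-null wells, a log2 ratio of 7.44 (6.69 to 8.31). *Pcsk6* had 16 counts over 4 WT wells and 2615 over 21 Renin-null wells, a log2 ratio of 6.34 (5.64 to 7.15). Only 5 Renin-null wells reached 10 CPM for *Pcsk5* and 5 for *Pcsk6*, and no WT well did. A share of 0 of 51 wells allows up to 5.88% when 3 wells are taken as the limit, and the exact Clopper-Pearson upper bound is 6.98%. The share of wells with a count, 24.0% for *Pcsk5* and 21.9% for *Pcsk6*, overlapped within its interval that of *Ren1* in the same wells. At 10 counts or more, *Pcsk6* was in 11 of 96 wells (11.5%, 5.86 to 19.6) and *Pcsk5* in 5 (5.21%, 1.71 to 11.7). *Ren1* was then in 1 of 96 (1.04%, 0.03 to 5.67), an interval that overlapped that of *Pcsk5* but not that of *Pcsk6*.

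Well YFP2_110 carried 3974 of the *Pcsk5* counts and 1997 of the *Pcsk6* counts. It was also the well with the most podocyte markers, 12660 CPM over the 5 markers, with 0.682 of renin cell and 34.5 of smooth muscle markers. Over whole genotypes the podocyte list summed to 86.1 CPM in WT, nearly all *Synpo* (83.2) with *Podxl* among the markers at 0, and to 559 in Renin-null cells with all 5 markers present. Without this well, a choice made after seeing the data, the log2 ratio was 5.07 for *Pcsk5* and 4.30 for *Pcsk6*. Without all 14 wells rich in other cell types it was 4.29 and 4.07, on the same 14 and 16 WT counts. As the mean difference of log2(CPM + 1) per well, both were below 2-fold, at 0.45 and 0.49.

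*Pcsk7*, a convertase of the trans-Golgi network and the cell surface (chr9:45906497-45929726), went the other way in the sums, at 46.9 CPM in WT against 5.15 in Renin-null wells, a log2 ratio of -3.19 (-3.26 to -3.12). It rested on well WT_3, which held 8874 of 9281 WT counts at 735 CPM. Of the other WT wells 16 had any count, and in Renin-null cells 9 wells did (9.38%, 4.38 to 17.1). That share was smaller than that of *Ren1*, with overlapping intervals. At 10 counts or more the order turned, with 4 of 96 Renin-null wells for *Pcsk7* and 1 of 96 for *Ren1*. Renin-null counts came almost wholly from well YFP1_96 (1093 counts) and well YFP2_144 (874 counts), which are among the near-identical pairs. *Pcsk7* shares exon bases with *Tagln* and, over 415 bases, with *Rnf214*, both on the opposite strand, and the counting is not stated to use strand, so reads in those bases cannot be assigned with certainty. *Tagln* was at 3473 CPM in WT against 5282 in Renin-null wells, a log2 ratio of 0.61.

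*Scg5* (chr2:113776362-113829121) encodes 7B2, the chaperone of the neuroendocrine convertase PC2. It was barely seen: 179 counts in 2 WT wells and 189 in 3 Renin-null wells, with 0 counts in YFP1. All 3 Renin-null wells (YFP2_147, YFP2_126 and YFP2_99) were among the 14 rich in other cell types, and YFP2_147 and YFP2_99 are a near-identical pair, so no Renin-null count was left without those 14. The part of the other cell types was not tested. The log2 ratio of -0.93 (-1.24 to -0.63) was -0.06 with YFP2 alone. *Pcsk2*, which encodes PC2, had 665 WT and 430 Renin-null counts, a log2 ratio of -1.64, with 86.6% of the WT counts in 1 well. Without the highest well of each genotype its ratio turned to 0.14. *Pcsk1*, the other neuroendocrine convertase, had 0 WT and 5 Renin-null counts.

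**Figure D3:**
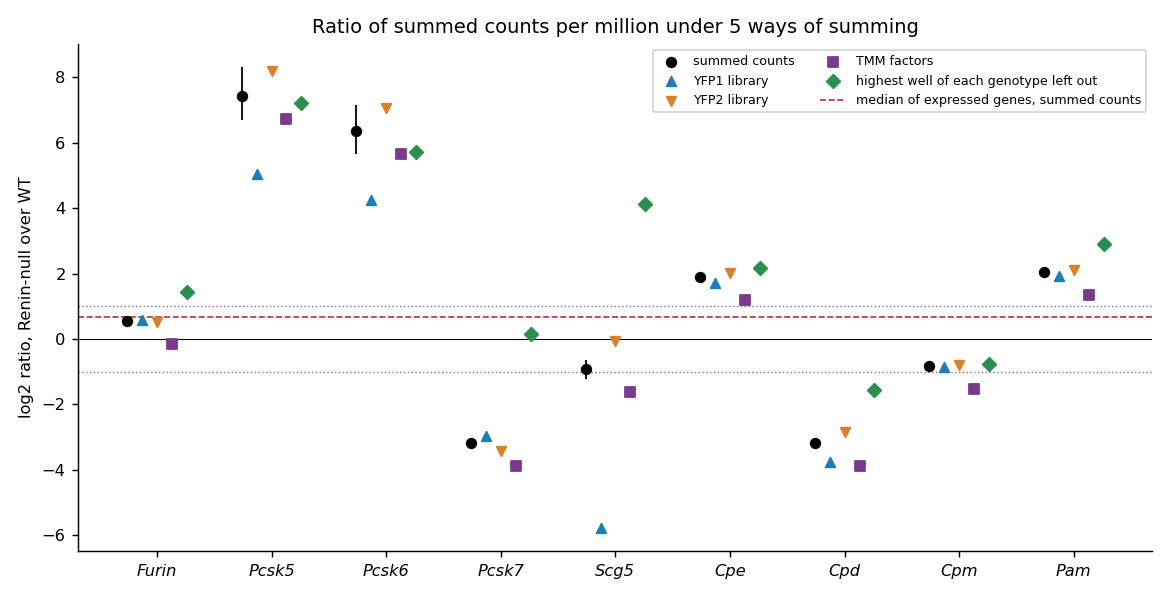
Log2 ratio of CPM, Renin-null over WT, for each gene from summed counts (black, with the exact conditional 95% interval), with YFP1 or YFP2 alone, with TMM factors and without the highest well of each genotype; dotted lines mark 2-fold and the dashed line the median of expressed genes, 0.66. *Cpe*, *Pam*, *Pcsk5* and *Pcsk6* lie above the upper dotted line and *Cpd* below the lower one with all 5 markers, while *Pcsk7* and *Scg5* move across 0 when the highest wells are left out.

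*Cpe*, the carboxypeptidase of dense-core secretory granules also proposed as a sorting receptor for prohormones (chr8:64592542-64693054), had a count in 44 of 51 WT and 93 of 96 Renin-null wells. The levels behind those counts differed. WT wells ran from 0 through a median of 3.28 to 1823 CPM, with 15 of 51 at 10 or more. YFP1 wells ran from 0 through 116.3 to 9701, with 37 of 48 at 10 or more, and YFP2 wells from 2.06 through 328 to 12932, with 41 of 48. The sets overlapped: 8 of 51 WT wells were at 100 or more, as were 57 of 96 Renin-null wells. Thinned to 62000 counts, *Cpe* was seen in 13 of 49 WT wells (26.5%) and 68 of 83 Renin-null wells (81.9%). Among wells that passed the filter, the thinned shares were 7 of 15 (46.7%) and 48 of 57 (84.2%).

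Summed over wells *Cpe* was at 325 CPM in WT (322 to 327) against 1202 in Renin-null wells (1198 to 1205), 3.70-fold higher, a log2 ratio of 1.89 (1.88 to 1.90). With YFP1 alone the ratio was 1.71 and with YFP2 alone 2.02. It was 1.55 among the wells that passed the filter, where the median was 2.86 CPM over 15 WT wells and 419 over 57 Renin-null wells. Leaving out the wells rich in other cell types gave 2.15, and counting near-identical wells as 1 gave 1.80. The wells of other cell types were not picked by fibroblast markers. Over the 13 settings, which do not count the one without well YFP2_110, it ran from 1.18 (TMM factors) to 3.93 (mean of log2 values). The highest Renin-null well, YFP2_108 with 13.8% of the counts, held 3474 CPM of fibroblast markers; that list, led by *Col1a2*, summed to 171 in WT against 625 in Renin-null wells, with *Dpt* at 0 in both. The part of those cells in the *Cpe* difference was not tested.

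*Cpd*, a carboxypeptidase of the trans-Golgi network with several catalytic domains (chr11:76778424-76847018), was lower in Renin-null cells. It was at 227 CPM in WT (225 to 230) against 24.9 in Renin-null wells (24.5 to 25.4), 9.12-fold lower, a log2 ratio of -3.19 (-3.22 to -3.16). WT wells ran from 0 through 3.45 to 4410, YFP1 wells from 0 through 0 to 134.4, and YFP2 wells from 0 through 0.161 to 417. A count was present in 44 of 51 WT wells and in 44 of 96 Renin-null wells, 15 in YFP1 and 29 in YFP2. At 10 CPM or more the shares over all wells were closer, 14 of 51 and 17 of 96, and after thinning closer still, 13 of 49 and 20 of 83. Among wells that passed the filter they stayed further apart, 7 of 15 and 14 of 57 at 10 CPM or more. After thinning those wells gave 7 of 15 and 15 of 57. Well WT_8 held 75.8% of the WT counts. Without the highest well of each genotype the log2 ratio was -1.55, and over the 13 settings it ran from -3.89 to -1.41.

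*Cpm*, a carboxypeptidase anchored in the plasma membrane (chr10:117629500-117687352), was at 274 CPM in WT (272 to 276) against 156 in Renin-null wells (154 to 157), a log2 ratio of -0.82 (-0.83 to -0.80), short of 2-fold. WT wells ran from 0 through 3.65 to 9463, YFP1 wells from 0 through 0.438 to 4824 and YFP2 wells from 0 through 0.944 to 2573. The wells with a count were 37 of 51 in WT and 65 of 96 in Renin-null cells, and the libraries gave -0.86 and -0.78. Among wells that passed the filter the median was 52.8 CPM in WT and 0.878 in Renin-null wells. Of these, 11 of 15 WT and 17 of 57 Renin-null wells were at 10 CPM or more, and their summed log2 ratio was -0.73. All 13 settings gave a negative ratio, and 4 passed 2-fold lower, among them TMM factors at -1.52. Well WT_8, the highest for *Cpd*, was also the WT well with the most *Cpm* counts (26.8%). It held 184699 CPM of the renin cell markers.

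*Pam* (chr1:97795114-98095646) had the same direction as *Cpe*. It had a count in 42 of 51 WT and 88 of 96 Renin-null wells. WT wells ran from 0 through 2.41 to 1589 CPM, with 11 of 51 at 10 or more. YFP1 wells ran from 0 through 21.4 to 2752, with 30 of 48, and YFP2 wells from 0 through 64.02 to 1001, with 40 of 48. After thinning it was seen in 13 of 49 WT wells (26.5%) and 62 of 83 Renin-null wells (74.7%). Among wells that passed the filter, the thinned shares were 6 of 15 (40.0%) and 51 of 57 (89.5%). The sums were 48.2 CPM in WT (47.2 to 49.1) against 197 in Renin-null wells (195 to 198), 4.09-fold higher, a log2 ratio of 2.03 (2.00 to 2.06). YFP1 gave 1.94 and YFP2 2.10, and the 13 settings ran from 1.33 (TMM factors) to 2.92 (mean of log2 values). Well WT_33 held 55.4% of the WT counts, and well YFP1_65 16.0% of the Renin-null counts.

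The upstream bases of *Pam* and *Cpd* are printed because these are the members of opposite direction that kept their call in all 13 settings and for which RefSeq has a promoter entry. Each line gives the 250 bases before the transcript start on GRCm38.p6, minus strand, chr1:98095647-98095896 for *Pam* and chr11:76847009-76847258 for *Cpd*, with the GC box GGGCGG on either strand in capitals.
Pam: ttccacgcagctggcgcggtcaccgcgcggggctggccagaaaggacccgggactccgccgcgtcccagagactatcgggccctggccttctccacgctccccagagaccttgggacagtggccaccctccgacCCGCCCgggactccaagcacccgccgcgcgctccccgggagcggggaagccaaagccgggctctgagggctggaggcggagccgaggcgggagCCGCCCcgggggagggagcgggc
Cpd: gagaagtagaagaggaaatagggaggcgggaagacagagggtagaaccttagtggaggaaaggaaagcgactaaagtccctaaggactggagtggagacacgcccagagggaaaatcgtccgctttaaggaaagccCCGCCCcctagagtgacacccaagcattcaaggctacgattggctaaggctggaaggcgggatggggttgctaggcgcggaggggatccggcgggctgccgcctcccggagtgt
*Pam* has 2 GC boxes and 75.6% G and C, and *Cpd* 1 GC box and 58.4%. Of 32851 promoter entries, 32.7% hold a GC box in these 250 bases. The half-site of the cAMP response element, TGACG on either strand, which does not contain the GC box, is in 17.8% of entries and in neither sequence; among the 8 members with an entry it was found for *Furin* and *Scg5*. The letters alone say nothing of binding.

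Wells were next compared by whether *Cpe* and *Pam* occurred together. At 10 CPM or more, 62 of 96 Renin-null wells had both, 16 *Cpe* alone, 8 *Pam* alone and 10 neither. In WT it was 4, 11, 7 and 29 of 51. All wells of the 4 near-identical pairs had both, so these profiles are counted more than once. Among wells that passed the filter, 44 of 57 Renin-null and 3 of 15 WT wells had both. Over those 57 Renin-null wells, however, the levels of *Cpe* and *Pam* were only loosely related, with Spearman's rho 0.22 (0.23 in YFP1 and 0.26 in YFP2). Among 1420 genes ordered by likeness to *Cpe*, *Pam* had rank 157. These points share libraries and differ in depth, and rho with the total counts of the well was 0.12 for *Cpe* and 0.04 for *Pam*.

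**Figure D4:**
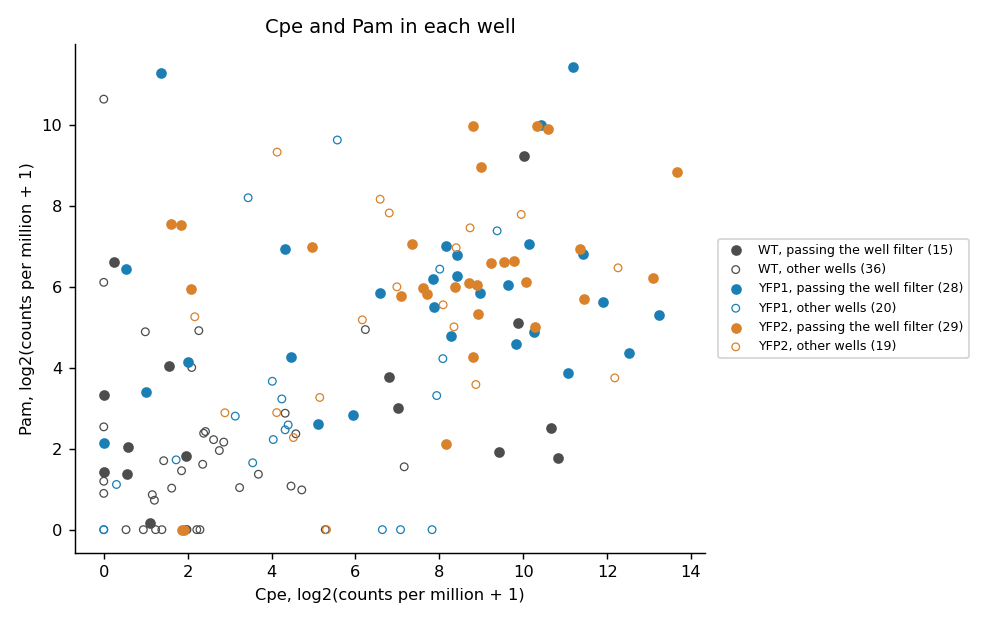
*Cpe* against *Pam* in every well, both as log2(CPM + 1); filled points passed the well filter and open points did not. Renin-null wells crowd the upper right, with 62 of 96 at 10 CPM or more for both genes against 4 of 51 WT wells. Among filled points it is 44 of 57 against 3 of 15.

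The genes most like *Cpe* over those 57 wells were *Bgn*, the matrix proteoglycan biglycan (rho 0.56; 0.66 in YFP1 and 0.47 in YFP2), *Dynll1*, a dynein light chain (0.54; 0.45 and 0.68), and *Map1b*, a microtubule-associated protein (0.48), for which the libraries differed at 0.79 and 0.11. For *Pam* they were *Synpo*, an actin-associated protein of podocytes and other contractile cells (0.48; 0.35 and 0.53), *Rarres2*, which encodes chemerin (0.43; 0.30 and 0.56), and *Map3k20*, a stress-activated kinase (0.42; 0.41 and 0.44). With *Akr1b7*, rho was 0.39 for *Pam* (0.33 and 0.48) and 0.21 for *Cpe* (0.31 and 0.14). For *Pam* it was 0.32 with summed podocyte markers, *Synpo* among them (0.09 and 0.37), 0.29 with pericyte markers (0.44 and 0.21) and 0.22 with smooth muscle markers (0.43 and 0.15). For *Cpe* it was 0.25 with fibroblast markers (0.21 and 0.32), 0.22 with smooth muscle (0.44 and 0.03), 0.21 with pericyte (0.35 and 0.09) and -0.25 with endothelial markers (-0.27 and -0.20). No other member had 10 counts in enough of these wells to be compared.

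Other genes of the pathway were counted in 5 lists. Of 9 related convertases and inhibitors, 8 had a ratio; 6 were 2-fold higher and 1 lower, with a median log2 ratio of 5.94 (1.17 over all genes, of which 52.4% were higher and 18.5% lower). With the mean of log2 values, 0 were higher and 0 lower, against 9.03% and 1.90% of all genes. Among genes of at least 10 CPM those shares were 21.9% and 3.92%. *Gbp2*, an interferon-induced GTPase known to hold furin back, had 0 counts in WT. It was at 43.5 CPM over all Renin-null wells, with a count in 32 of them. Well YFP1_68 held 62.9% of the 17341 *Gbp2* counts. That well had 2303 CPM of podocyte markers, but also 7822 of renin cell, 28409 of smooth muscle and 30904 of pericyte markers. Against a floor of 3 counts over the WT genotype the log2 ratio of *Gbp2* was 11.49, and 10.07 without the highest well. The related *Gbp5* had a log2 ratio of 4.67. *Mbtps1*, the site-1 protease of the Golgi, had 1.20 overall and 1.97 in YFP2 but was 2-fold lower in YFP1. Single wells held 89.3% of its WT and 77.5% of its Renin-null counts, and without them the ratio was 2.22.

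Among carboxypeptidases and aminopeptidases outside the members, 22 of 23 were in the tables and 16 had a ratio; 12 were higher and 1 lower, with a median of 2.93, against the same 52.4% and 18.5% of all genes. With the mean of log2 values, 4 were higher and 1 lower, against 9.03% and 1.90% of all genes. Among genes of at least 10 CPM those shares were 21.9% and 3.92%. *Cpq*, plasma glutamate carboxypeptidase, was at 8.25 CPM in WT against 272 in Renin-null wells, a log2 ratio of 5.04 (4.97 to 5.11), in 16 of 51 and 82 of 96 wells. *Aebp1*, a collagen-binding relative of *Cpe*, was at 106.7 and 316 (1.56, with 0.86 in YFP1 and 1.97 in YFP2), in 33 and 85 wells. *Ctsa*, the lysosomal protective protein, was at 250 and 125.1 (-0.998, just inside 2-fold, with -0.46 in YFP1 and -1.67 in YFP2), and *Lnpep*, an aminopeptidase of insulin-responsive vesicles, at 229 and 112.7 (-1.02, but -0.43 with YFP2 alone and -0.23 without the highest wells). *Cpn1*, a subunit of plasma carboxypeptidase N, had 0 counts in WT, with 60.1% of its Renin-null counts in well YFP2_120. That well held 5586 CPM of proximal tubule markers.

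Granins, regulated secretion and the prorenin route gave 6 higher and 3 lower of 15 with a ratio, with a median of 0.38; the background was 52.4% and 18.5%. With the mean of log2 values, 5 were higher and 1 lower, against 9.03% and 1.90% of all genes. Among genes of at least 10 CPM those shares were 21.9% and 3.92%. *Ctsb*, a lysosomal protease long discussed as a prorenin-processing enzyme, was the most abundant, at 1714 and 1545 CPM (-0.15), in 50 of 51 and 94 of 96 wells. *Ctsl*, a related protease, had 0.77, and 1.73 without the highest wells. *Klk1*, tissue kallikrein, had 6.80 with 90.5% of its Renin-null counts in well YFP1_74, the well with the most loop and distal tubule markers in YFP1. A count was present in 2 WT wells, 1 with 99.5% of the counts, and in 42 Renin-null wells, and the ratio was 7.83 in YFP1, 3.85 in YFP2 and 11.12 without the highest wells. *M6pr*, the cation-dependent mannose 6-phosphate receptor, which most cells use, is listed at 0 in all WT wells and was at 80.3 CPM in Renin-null cells, in 62 wells. *Qpct*, which closes N-terminal glutamine into pyroglutamate, had 10.64, whereas its relative *Qpctl* had -1.44, with 99.2% of the WT counts in 1 well, and turned to 4.84 without the highest wells. *Sort1*, the sorting receptor sortilin, was at 233 and 30.8 (-2.92), with a count in 35 of 51 and 42 of 96 wells. Single wells held 57.2% of its WT and 73.1% of its Renin-null counts; the ratio was -7.32 in YFP1, -2.08 in YFP2 and -3.65 without those wells.

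Of 30 precursors cut by furin-type convertases, 28 had a ratio; 11 were higher and 9 lower, with a median of 0.39, against a background of 52.4% and 18.5%. With TMM factors the list had 9 higher and 12 lower (43.1% and 27.2% of all genes). The mean of log2 values gave 6 and 2, against 9.03% and 1.90% of all genes. Among genes of at least 10 CPM those shares were 21.9% and 3.92%. *Notch2* was at 747 and 673 CPM (-0.15), *Lrp1* at 483 and 102.4 (-2.24) and *Notch3* at 310 and 145.5 (-1.09); all 3 are cell surface receptors cut on their way out. *Notch3* was short of 2-fold with YFP2 alone (-0.62) and without the highest wells (-0.91). For *Lrp1* the libraries gave -5.19 and -1.45, and 1 well held 62.3% of its WT counts. *Pdgfb*, a growth factor for mural cells, had 3098 WT counts in 10 wells and 7 Renin-null counts (-9.80). *Bdnf* had 6.11 and *Vegfc* 0 WT counts, with 99.5% of the Renin-null *Vegfc* counts in 1 well.

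Among 18 precursors known to be amidated by *Pam*, 12 had no ratio because both genotypes held 3 counts or fewer. A gene with counts in Renin-null cells alone passes that limit and can only come out higher. *Trh*, with 0 WT and 2442 Renin-null counts, is such a gene. The Renin-null sum was also the deeper one, at 398812805 counts against 197904443 in WT. The 6 with a ratio were all 2-fold higher, with a median of 7.48, against a background of 52.4% under the same limit. With YFP2 alone, 4 were higher and 1 lower, against 49.8% and 22.7% of all genes. Without the highest wells 5 of the 6 were higher, against 62.7% of all genes, and *Trh* fell to 0.74. With the mean of log2 values, 0 of the 6 were 2-fold higher, against 9.03% of all genes and 21.9% of those of at least 10 CPM. Of 3 of the 6 most Renin-null counts sat in single wells. These were 90.9% of *Adm* (adrenomedullin, 4.74) in well YFP2_110, 99.7% of *Npy* (5.78, but -3.59 with YFP2 alone) in well YFP1_65, and 99.6% of *Trh* in well YFP1_90. *Oxt* had 1 WT count and 408 Renin-null counts, a log2 ratio of 7.66 (5.18 to 12.97). Well YFP1_65 was also the well with the most *Pam* counts, at 2484 CPM.

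**Figure D5:**
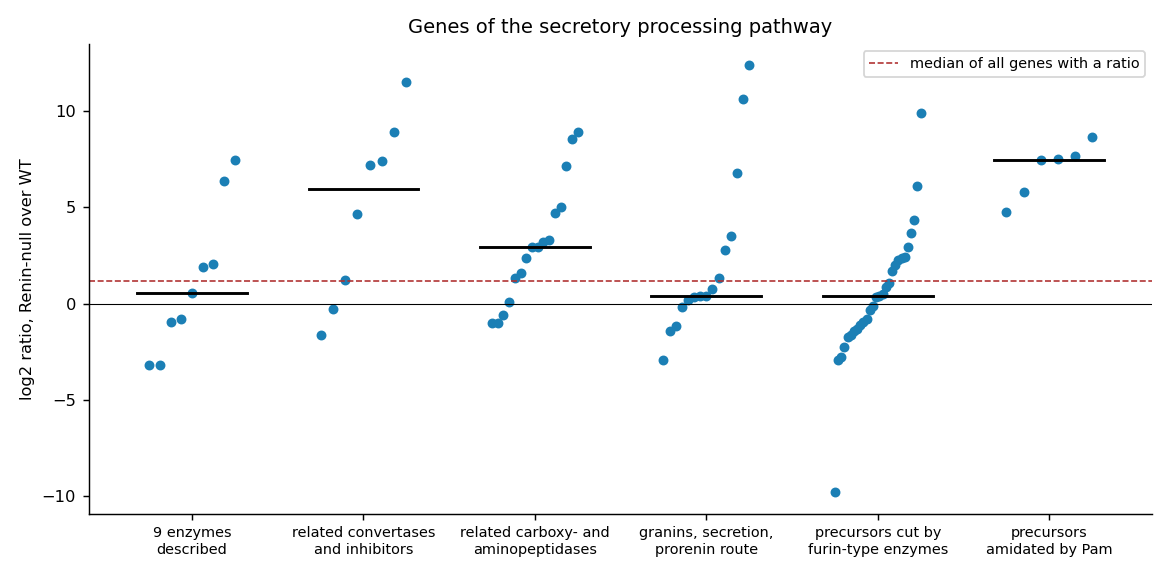
Log2 ratio of summed CPM, Renin-null over WT, for the 9 enzymes and the genes of the 5 pathway lists that had a ratio; each point is a gene, the black line is the list's median and the dashed line the median of all genes, 1.17. The medians of the members, the granin and secretion list and the furin-type precursors lie below the dashed line, and those of the other 3 lists above it.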

How the data were processed

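YFP-positive kidney cortex cells were captured on the Fluidigm C1 System, where wells with single viable cells were picked by eye, and amplified with SMART-Seq v4. No doublet caller was run. The authors trimmed reads with Trimmomatic 0.39 and quantified them with Salmon 0.11.2 (versions from the submitters' processing notes) on GRCm38, and summed transcripts to genes with tximport and lengthScaledTPM. What the authors deposited are tables of expected counts, 35438 genes by cell, corrected for transcript length but not for depth; for their own comparison the authors normalized with SCTransform. The labels name no mouse per cell.

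Here the expected counts were rounded to whole numbers and added up over all wells of each genotype. Sums per 1000000 counts (CPM) gave log2 ratios, Renin-null over WT. For a gene at 0 in a genotype, 3 counts over that genotype stood in, and no ratio was taken where both held 3 or fewer. A log2 ratio of 1 or more in size was called 2-fold. Intervals at 95% are exact: Poisson for sums, conditional binomial for ratios, Clopper-Pearson for shares of wells. With 1 pool per genotype no p-value was computed. Per-length levels used the mean exonic length of protein-coding transcripts in GENCODE M21 (GRCm38), which has a single match for 34235 of the genes. Promoter sequence came from RefSeq on GRCm38.p6, with an entry for 8 of the 9 members. Wells over 2000 CPM of summed tubule, podocyte, endothelium or macrophage markers, and wells with a pairwise r of at least 0.95, entered the alternatives. Fibroblast markers were not used to pick the wells of other cell types. Some picked wells, such as YFP1_68, were also rich in smooth muscle and pericyte markers. Likeness was Spearman's rho of log2(CPM + 1) over filtered Renin-null wells, among genes with 10 counts in at least 50% of them.

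The members, the 5 pathway lists and the marker lists were chosen with earlier results of these data known. Named are all members, *Ren1*, *Akr1b7*, the 3 genes of each list with the highest level in either genotype and those with the 2 largest and 2 smallest ratios (at least 100 counts over both genotypes), the 3 genes most like a member, and the most abundant marker of each cell type list beside the results it moves with. *Pcsk1* and other markers at 0 are named in addition, after their values were seen. Some genes the rule would name are not reported here. The ratio and its interval were tested on counts simulated as Poisson draws from the WT sum, with set fold changes. That simulation had no wells and no amplified copies, so it does not cover genes whose counts sit in few wells. Python 3.11.15, scipy 1.17.1, R 4.3.3, edgeR 4.0.16 (TMM) and sctransform 0.4.2 were used.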

Additional observations from a re-analysis of the deposited data

How the results depend on the processing

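The number of members at least 2-fold higher in Renin-null cells stayed within 1.5 times the reported 4 in all alternatives (3 to 6), while the share of all genes called higher, 52.4% as reported, ran from 9.03% with the mean of log2 values (3 members) to 62.7% without the highest cell (6 members). The number at least 2-fold lower, 2 as reported, with 18.5% of all genes, became 4 with TMM factors (27.2% of all genes), 4 without mitochondrial genes and *Ren1* (21.8%), 4 without wells of other cell types (22.7%), 4 after centring on the expressed genes (26.7%), 3 with YFP1 alone (27.4%) and 3 with the cell filter (20.1%), and 1 with the mean of log2 values (1.90%) and 1 without the highest cell (11.1%). The median log2 ratio of the members, reported as 0.55, moved to -0.15 with TMM factors, -0.12 after centring, 0.10 without wells of other cell types, 0.20 without mitochondrial genes and *Ren1*, 0.29 with the cell filter, 0.44 without well YFP2_110 (chosen after seeing the data), 0.45 with the mean of log2 values, 0.61 with near-identical wells counted as 1, 1.53 with the mean over cells, 1.58 with SCTransform, 1.73 with thinned cells and 2.18 without the highest cell; the median of all genes, 1.17, was 0.47 with TMM factors, 0.13 with the mean of log2 values, 1.36 with thinned cells and 1.84 without the highest cell, below that of the members in the last 3. Over genes of at least 10 CPM the median was 0.45 with the mean of log2 values, as for the members. It was 1.43 with thinned cells and 1.54 without the highest cell. Of those genes, 21.9% were called higher and 3.92% lower with the mean of log2 values. *Pcsk7* reversed to 0.16 without the highest cell, where well WT_3 leaves the sum. The other causes were not tested. *Scg5* had no thinned value, because both genotypes then held 3 counts or fewer. *Cpe*, *Pam* and *Cpd* stayed past 2-fold in the same direction in all 13 alternatives chosen at the start.

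No paired analysis was possible because the result comes from no test and the genotypes share no sample number. The counts of *Pcsk5*, *Pcsk6*, *Pcsk7* and *Scg5* came from a few wells in at least 1 genotype. With each well thinned to 62000 counts, *Pcsk5* was seen in 1 of 49 WT and 4 of 83 Renin-null wells. *Pcsk6* was then seen in 0 and 6 of these wells, *Pcsk7* in 2 and 3, and *Scg5* in 1 and 1. The part of depth was not tested beyond this thinning. Of the WT wells, 36 of 51 did not pass the filter, mostly with high mitochondrial shares.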
